A study of Mus musculus with 11 samples.

Results

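Annexins are proteins that bind phospholipid membranes when calcium rises. All share a conserved core that docks onto acidic lipids such as phosphatidylserine, and they differ in the N-terminal stretch that recruits other proteins. In phagocytes and dendritic cells they are known for work at the plasma membrane and on endosomes, in membrane repair, vesicle traffic and the handling of dying cells. The genes described here are 8 listed annexins, Anxa1 to Anxa7 and Anxa11, out of 22180 genes tested. They were selected on their log2 values in naive against lymphoma-exposed arrays, so those values are given as descriptions and carry no p-value. Of the 8, 7 had a probeset that names that gene alone, and each of these had exactly 1. Anxa11 is left without a value because its 3 probesets each also name a pair of predicted genes.

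The arrays profile dendritic cells of the spleen, sorted on CD11c and MHC class II to a purity above 95%. Both groups are of the C57BL/6 strain: 6 arrays hold cells of naive mice, and 5 hold cells of mice after transfer of Eµ-Myc lymphoma, a B cell lymphoma driven by a Myc transgene, with no other allele or agent named for either group. In the lymphoma spleens the tumour made up 10 to 36% of lymphocytes on average, and neither the age of the mice nor whether any array pooled several mice was given. The comparison asks how transcripts of dendritic cells differ in a spleen that holds lymphoma. Nothing in the labels ties an array to its own mouse, so every p-value measures only the spread between these 11 samples.

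Values are log2 expression, where 1 unit is a 2-fold change, and differences are exposed minus naive. A gene is called when its p-value from limma, adjusted for all genes tested, is under 0.05. Array medians ran from 5.53 to 5.61. Genes of the sort and of dendritic cells were high: the 4 measured sort markers averaged 12.97 in naive and 12.91 in exposed cells, and the 5 general dendritic cell markers 11.02 and 10.90. Markers of type 1 conventional dendritic cells averaged 10.42 and 10.49, and those of type 2 averaged 9.38 and 9.28. Of 9 measured B cell markers 6 were positive and 0 called, from -0.35 for Blk to 0.36 for Cd79a (limma adjusted p = 0.0542 and 0.452), and the list mean differed by 0.01. Of 6 T cell markers 3 were positive and 0 called, from -0.28 for Cd5 to 0.34 for Cd3g (adjusted p = 0.187 and 0.169), with Cd3e at 0.25 (adjusted p = 0.256), and 5 of the 6, Cd3e among them, were dim. Among markers of dendritic cell subsets and NK cells, Clec4a4 (-0.43, adjusted p = 0.0250) and Klrd1 (-0.52, 0.0452) were called lower, and Smim5 (0.39, 0.0304) and Ncr1 (0.46, 0.0289) higher. Clec4a4 was the 1 called of 8 type 2 markers, of which 4 were positive. Klrd1 and Ncr1 were the only ones called of 6 measured NK cell markers, of which 4 were positive. Smim5 and Ncr1 averaged 5.61 and 5.72 in naive cells, close to the mark for dim genes given below. Smim5 was the 1 called of 8 plasmacytoid dendritic cell markers, of which 6 were positive, with Siglech at -0.10 and Ccr9 at -0.01. Markers of red pulp macrophages did set arrays apart. Their mean lay between 8.39 and 9.58 on the naive arrays, at 10.97 and 10.11 on exposed arrays 1 and 2, and between 8.97 and 9.10 on the other 3 exposed arrays. The titles number the arrays, and arrays 1 to 3 of either group stood apart from arrays 4 to 6, so annexin values are given within each of these number sets. All 7 measured annexins lay above 5.60, the mark for dim genes, which is the 95th percentile of the olfactory receptor genes.

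Anxa3, Anxa2 and Anxa4 were higher in exposed cells, by 1.45-fold, 1.26-fold and 1.20-fold. For each of the 3, the lowest of the 5 exposed arrays was above the highest of the 6 naive ones. Anxa5, Anxa7, Anxa1 and Anxa6 differed by between -0.12 and 0.09, with overlapping groups. In the fit of all genes 3 of the 7 were called higher and 0 lower, where 0.879% of all genes were called higher and 0.546% lower. Groups that do not overlap, with the exposed arrays higher, occurred for 3 of the 7 annexins and 1.42% of all genes, and with the exposed arrays lower for 0 of the 7 and 0.875% of all genes. Calls in either direction made up 1.42% of all genes. Because the annexins were chosen by this comparison, nothing is read from these shares. The median difference over the 7 was 0.093, and over all genes 0.008. When each array was left out in turn, the difference lay between 0.48 and 0.59 for Anxa3, 0.30 and 0.37 for Anxa2 and 0.25 and 0.29 for Anxa4. Of these 11 fits Anxa3 was called in 11, Anxa4 in 9 and Anxa2 in 4. Calls of annexins between exposed and naive cells, here and below, rest on the values that chose these genes. Such calls describe the fits and test nothing. The count of 3 fell to 1, Anxa3 alone, without naive array 5 or without exposed array 2. Centring arrays on their median also lost the call of Anxa2.

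**Figure D1:**
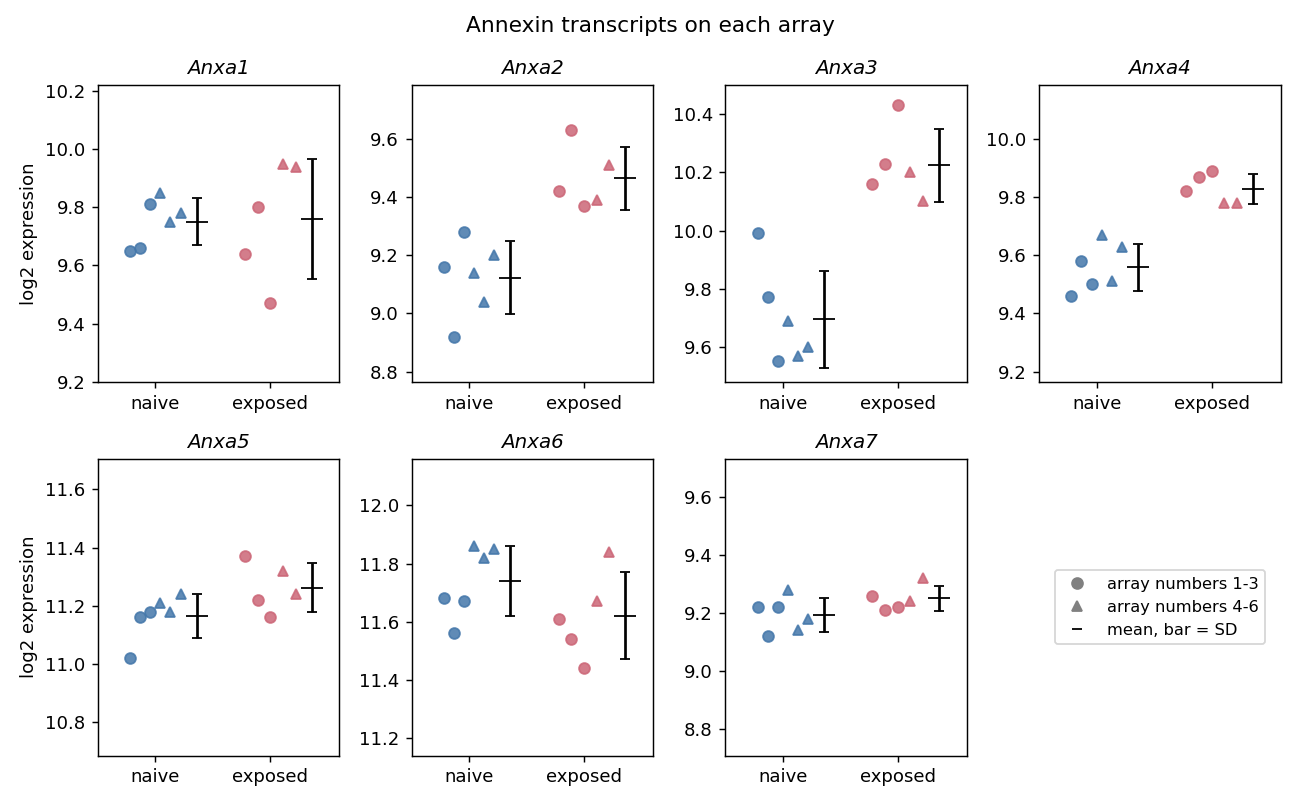
Log2 expression of the 7 measured annexins (vertical axis; every panel covers a range of equal length, set at its own level) on 6 naive and 5 exposed arrays; circles are arrays numbered 1 to 3, triangles 4 to 6, and the bar gives mean and SD. For Anxa2, Anxa3 and Anxa4 every exposed point lies above every naive point, while the groups overlap for Anxa1, Anxa5, Anxa6 and Anxa7.

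Anxa3 showed the largest difference of the family. It encodes a short annexin found on granules and membranes of phagocytes. The naive arrays ran from 9.55 over a median of 9.65 to 9.99, with array 1 the highest. The exposed arrays 1, 2, 3, 4 and 6 read 10.16, 10.23, 10.43, 10.20 and 10.10. Even the lowest exposed array, number 6, lay above naive array 1. The means were 9.69 ± 0.17 (SD, n = 6) and 10.23 ± 0.13 (SD, n = 5), a difference of 0.53 ± 0.08 (SE; 95% limits 0.35 to 0.71). Arrays 1 to 3 alone gave 0.51, and arrays 4 to 6 alone gave 0.53.

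Anxa2 encodes the annexin that joins with the small protein S100a10 at the inner face of the plasma membrane and can gather plasminogen at the cell surface. Naive arrays lay between 8.92 and 9.28 with a median of 9.15. The exposed arrays 1, 2, 3, 4 and 6 read 9.42, 9.63, 9.37, 9.39 and 9.51, so the exposed values start just above the naive ones. The means of 9.12 ± 0.13 (SD, n = 6) and 9.46 ± 0.11 (SD, n = 5) differ by 0.34 ± 0.07 (SE; 95% limits 0.19 to 0.49). Both number sets gave nearly the same size, 0.35 and 0.32.

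Anxa4 encodes an annexin that forms lattices on membranes and is best known from epithelia. Its naive arrays ran from 9.46 over a median of 9.55 to 9.67. The exposed arrays 1, 2, 3, 4 and 6 read 9.82, 9.87, 9.89, 9.78 and 9.78. These arrays were the tightest of the 3 higher annexins, with an SD of 0.08 in naive (n = 6) and 0.05 in exposed cells (n = 5). The means of 9.56 and 9.83 differ by 0.27 ± 0.05 (SE; 95% limits 0.16 to 0.38). Arrays 1 to 3 gave 0.35 against 0.18 for arrays 4 to 6, and the interaction of group and number set was not called for it (limma, unadjusted p = 0.0838, adjusted p = 0.992).

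The bases ahead of the RefSeq starts of Anxa2 and Anxa4 are shown because both genes were higher, and because the study is built on the transcription factor C/EBPβ. RefSeq windows of 250 bases before a start (GRCm38.p6) were at hand for 6 of the 8 annexins, in 8 windows. None was at hand for Anxa3 or Anxa6, so these genes were not searched. The 8 windows were searched on both strands for a C/EBP motif (TTGCNNAA, or TTNNGCAA on the other strand), an AP-1 motif (TGANTCA) and a STAT motif (TTCNNNGAA). Among all 32851 windows of this length, 9.56% hold the C/EBP letters, 6.75% the AP-1 letters and 7.02% the STAT letters. Of the 8 annexin windows, 2 held the C/EBP letters, 1 the AP-1 letters and 0 the STAT letters, and no matches overlapped. A match describes letters and not binding. Capitals mark the matches in the sequences below, written 5′ to 3′ on the gene's strand.
Anxa2, chr9:69453433-69453682, plus strand, with the AP-1 letters starting 95 bases before the start: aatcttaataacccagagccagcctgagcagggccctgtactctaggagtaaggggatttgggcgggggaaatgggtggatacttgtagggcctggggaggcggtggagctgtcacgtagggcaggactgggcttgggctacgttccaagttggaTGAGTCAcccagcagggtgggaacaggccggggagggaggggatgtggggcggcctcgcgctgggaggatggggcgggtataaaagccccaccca
Anxa4, chr6:86793585-86793834, minus strand, at the outer of 2 starts, with no match: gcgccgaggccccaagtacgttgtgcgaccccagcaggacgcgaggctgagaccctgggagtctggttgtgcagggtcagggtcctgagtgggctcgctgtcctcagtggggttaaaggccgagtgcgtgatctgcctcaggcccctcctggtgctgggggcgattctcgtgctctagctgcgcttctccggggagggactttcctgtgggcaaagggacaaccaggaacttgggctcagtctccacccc
Anxa4, chr6:86775115-86775364, minus strand, at the inner start, with the C/EBP letters starting 208 bases before it: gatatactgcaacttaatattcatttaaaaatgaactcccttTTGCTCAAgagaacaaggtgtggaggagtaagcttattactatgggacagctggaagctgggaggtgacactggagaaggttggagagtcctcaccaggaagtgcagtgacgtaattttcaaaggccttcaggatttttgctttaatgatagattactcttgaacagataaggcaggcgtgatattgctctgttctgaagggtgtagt
The windows of Anxa2 and of the outer Anxa4 start are rich in G and C (62.4% and 64.8%), and the inner Anxa4 window is not (42.0%), where the median window has 52.4%. With 1 probeset for the gene, the values do not tell which Anxa4 start was used.

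Anxa1, Anxa5, Anxa6 and Anxa7 differed little between the groups. Anxa1 encodes a protein induced by glucocorticoids that restrains phospholipase A2 and, once released, acts on formyl peptide receptors. Its naive arrays lay between 9.65 and 9.85 with a median of 9.76, and the exposed arrays 1, 2, 3, 4 and 6 read 9.64, 9.80, 9.47, 9.95 and 9.94. The exposed arrays spread to both sides of the naive ones, 2 below all of them and 2 above. The difference was 0.01 ± 0.08 (SE; 95% limits -0.17 to 0.19), with -0.07 for arrays 1 to 3 against 0.15 for arrays 4 to 6. Its sign turned to -0.01 with arrays centred on their median and to -0.03 at a common 75th percentile. The exposed SD of 0.21 (n = 5) compares with 0.08 (n = 6) in naive cells. The Anxa1 promoter is shown as the other annexin window with C/EBP letters, which start 143 bases before the RefSeq start.
Anxa1, chr19:20390672-20390921, minus strand: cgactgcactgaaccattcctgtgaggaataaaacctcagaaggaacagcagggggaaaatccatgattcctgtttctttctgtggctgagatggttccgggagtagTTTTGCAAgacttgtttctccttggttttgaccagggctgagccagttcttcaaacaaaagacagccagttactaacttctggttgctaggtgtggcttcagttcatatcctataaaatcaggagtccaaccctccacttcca

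Anxa5 encodes the annexin used in the laboratory to stain phosphatidylserine on dying cells. Its naive arrays ran from 11.02 over a median of 11.18 to 11.24, and the exposed arrays 1, 2, 3, 4 and 6 read 11.37, 11.22, 11.16, 11.32 and 11.24. Naive array 1 stood below the rest of its group, and 2 exposed arrays lay above all naive ones. The difference was 0.09 ± 0.05 (SE; 95% limits -0.01 to 0.20).

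Anxa7, also called synexin, carries a long N-terminal region and was first known for joining secretory granules. Its naive arrays lay between 9.12 and 9.28 with a median of 9.20. The exposed arrays 1, 2, 3, 4 and 6 read 9.26, 9.21, 9.22, 9.24 and 9.32, within the naive range except for the last. The difference was 0.06 ± 0.04 (SE; 95% limits -0.04 to 0.15).

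Anxa6, an annexin with a duplicated core that acts on endosomes and in cholesterol traffic, was the 1 measured annexin with a negative difference. Naive arrays ran from 11.56 over a median of 11.75 to 11.86. The exposed arrays 1, 2, 3, 4 and 6 read 11.61, 11.54, 11.44, 11.67 and 11.84. The groups overlapped widely, and the difference was -0.12 ± 0.07 (SE; 95% limits -0.28 to 0.04).

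Of the 7 measured annexins of the list, Anxa6 was instead the one with the largest difference between the number sets. That contrast did not choose the genes, but it was taken up after these same arrays had been seen to stand apart by number. The p-values and shares called for it therefore describe the split and do not test it. Naive arrays 1 to 3 read 11.68, 11.56 and 11.67, and naive arrays 4 to 6 read 11.86, 11.82 and 11.85. Exposed arrays 1 to 3 read 11.61, 11.54 and 11.44, and exposed arrays 4 and 6 read 11.67 and 11.84. In both groups every array numbered 4 to 6 lay above every array numbered 1 to 3. The share of all genes that separate by number in both groups was not counted. With the group as a covariate the number sets differed by 0.21 ± 0.04 (SE; limma adjusted p = 0.0224), where 3.3% of all genes were called (2.64% higher and 0.658% lower in arrays 4 to 6). Of the 7 annexins Anxa6 alone was called, and it was higher. The call was lost without naive array 4 (adjusted p = 0.0516), without naive array 6 (0.0554) and without exposed array 6 (0.0822). It was also lost in limma without a mean-variance trend (0.0564) and with all arrays brought to 1 common 75th percentile (0.0645). Anxa1 differed by 0.18 and Anxa3 by -0.14 between the sets, neither called (limma adjusted p = 0.147 and 0.320). Of the dim annexins outside the list, Anxa13 differed by -0.25 and Anxa8 by -0.28, neither called (limma adjusted p = 0.0718 and 0.108). In both groups every Anxa13 array numbered 4 to 6 lay below every array numbered 1 to 3. What the numbers stand for is not given.

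**Figure D2:**
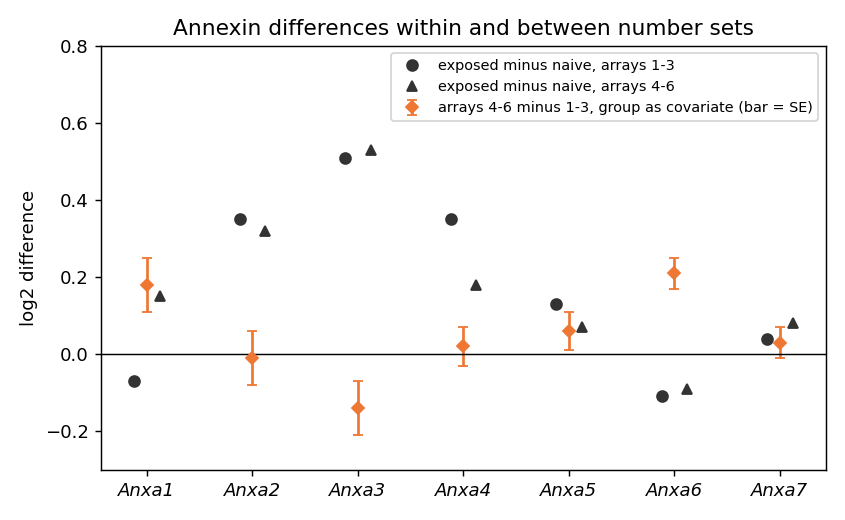
Log2 differences (vertical axis) for the 7 measured annexins; circles and triangles are exposed minus naive within arrays 1 to 3 and 4 to 6, diamonds are arrays 4 to 6 minus 1 to 3 with the group as a covariate, with the SE as bar. Anxa3 and Anxa2 show nearly equal group differences in both sets, Anxa4 0.35 and 0.18, and Anxa6 differs by 0.21 between the sets.

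The interaction of group and number set was called for 0 of all genes by limma, with 943 genes (4.25%) at an unadjusted p under 0.05. None of the 7 annexins was among those, Anxa4 having the lowest unadjusted p. A block for the number set left differences of 0.52 for Anxa3, 0.34 for Anxa2 and 0.27 for Anxa4.

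Most red pulp macrophage and monocyte markers had positive differences, and few were called. Of 12 macrophage markers 10 were positive and 0 called, where 53.5% of all genes were positive, with the level of the list from 8.39 to 9.58 in naive and 8.97 to 10.97 in exposed cells and none of them at or below the dim mark. Cd5l, a macrophage protein, had the largest difference among them, 1.89 (limma adjusted p = 0.0693). Adgre1 (-0.18) and Cd68 (-0.01) were the macrophage markers with negative differences. Of 10 measured monocyte markers 9 were positive and 2 called, and the list ran from 8.08 to 8.44 in naive and 8.23 to 8.77 in exposed cells. The chemokine receptor Cx3cr1 rose by 0.46 and the lysozyme gene Lyz2 by 0.50 (limma adjusted p = 0.00866 and 0.0355), and Ly6c2 differed by 0.33 (adjusted p = 0.683). Only Ly6c1 of that list was at or below the dim mark. In sorted cell pools, more cells of a type and more RNA per cell cannot be told apart.

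The part of these cells in the annexin differences was not tested. With exposed arrays 1 and 2 removed, Anxa3 differed by 0.55 ± 0.10, Anxa2 by 0.30 ± 0.08 and Anxa4 by 0.26 ± 0.06 (SE), against 0.53, 0.34 and 0.27 with all arrays, though of the 3 only Anxa3 was then called. With the macrophage marker mean as a covariate the same genes gave 0.52, 0.36 and 0.26, and with the monocyte marker mean 0.45, 0.36 and 0.27. Anxa3 alone was called in the first of these fits, and none of the 3 in the second. Of 10 neutrophil markers 7, among them Ly6g, Camp and Ltf, lay at or below the dim mark, and the list averaged 5.27 and 5.31. Csf3r was well above it, at 8.03 in naive and 8.38 in exposed cells, with every exposed array above the naive ones (0.36, limma adjusted p = 0.0589). Mpo and Cxcr2, also above the mark, differed by -0.06 and -0.07 (adjusted p = 0.821 and 0.798). Of the 10 neutrophil markers 4 were positive and 0 called.

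Annexins outside the list stayed at the level of dim genes. Anxa8, Anxa9, Anxa10 and Anxa13, which are known mainly from epithelia, had means at or below 5.60 in both groups. Anxa8 read 4.67 ± 0.28 (SD, n = 6) and 4.70 ± 0.07 (SD, n = 5), and Anxa10 3.49 ± 0.15 and 3.45 ± 0.10. Anxa13 read 4.59 ± 0.17 and 4.61 ± 0.16, and Anxa9 differed by 0.06 between the groups. Their differences lay between -0.03 and 0.06, and at such a dim signal they are given as values only.

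S100 proteins are small calcium binders, and several dock onto the N-terminus of an annexin. Of 15 S100 genes 1 was called, S100a10, and it was lower while its partner Anxa2 was higher. S100a10 naive arrays ran from 8.68 to 9.20 with a mean of 8.98 ± 0.19 (SD, n = 6), and the exposed arrays 1, 2, 3, 4 and 6 read 8.43, 8.53, 8.79, 8.44 and 8.63. Of the 5 exposed arrays 4 lay below all naive arrays, and exposed array 3 lay within the naive range. S100a10 fell by 0.41 ± 0.09 (SE; limma adjusted p = 0.0481), a 1.33-fold lower level, where 0.546% of all genes were called lower. Arrays 1 to 3 gave -0.55 and arrays 4 to 6 gave -0.29. The call is close to the threshold: leaving out single arrays kept it in 2 of 11 fits, without naive array 5 or without exposed array 3, and the largest adjusted p was 0.124, without exposed array 2. It was also lost in limma without trend (adjusted p = 0.0586), and with exposed arrays 1 and 2 removed the difference was -0.36 (adjusted p = 0.239).

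**Figure D3:**
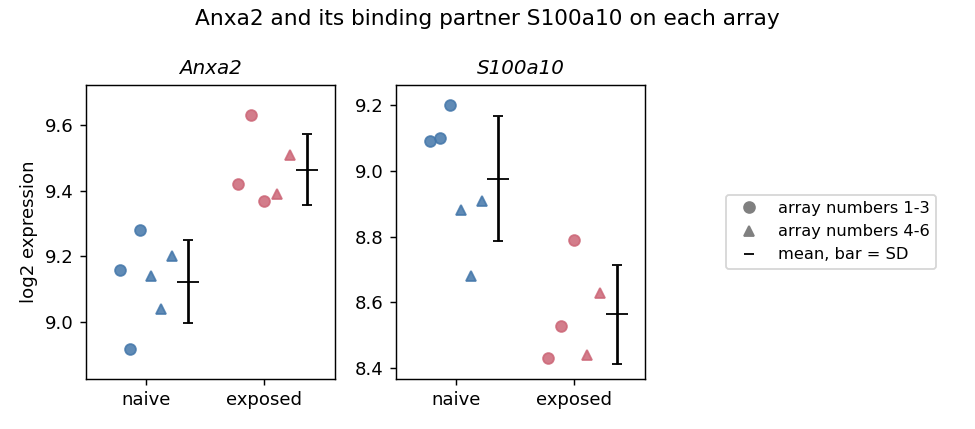
Log2 expression (vertical axis; both panels cover a range of equal length, each at its own level) of Anxa2 and S100a10 on the 6 naive and 5 exposed arrays, with circles for arrays numbered 1 to 3, triangles for 4 to 6 and a bar for mean and SD. Every exposed Anxa2 value lies above the naive values, while 4 of 5 exposed S100a10 values lie below all naive ones.

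The S100 partners of other annexins did not pass. S100a11, which binds Anxa1, read 12.31 ± 0.15 (SD, n = 6) and 12.20 ± 0.05 (SD, n = 5), a difference of -0.10 (limma adjusted p = 0.602). S100a6, which binds Anxa2 and Anxa11, differed by 0.07 (adjusted p = 0.838). Over the 15 genes 11 were positive, with a median of 0.098 against 0.008 for all genes, and the differences ran from -0.41 to 0.33. The neutrophil and monocyte genes S100a8 and S100a9 lay at or below the dim mark and differed by 0.10 and 0.11 (adjusted p = 0.789 and 0.794).

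**Figure D4:**
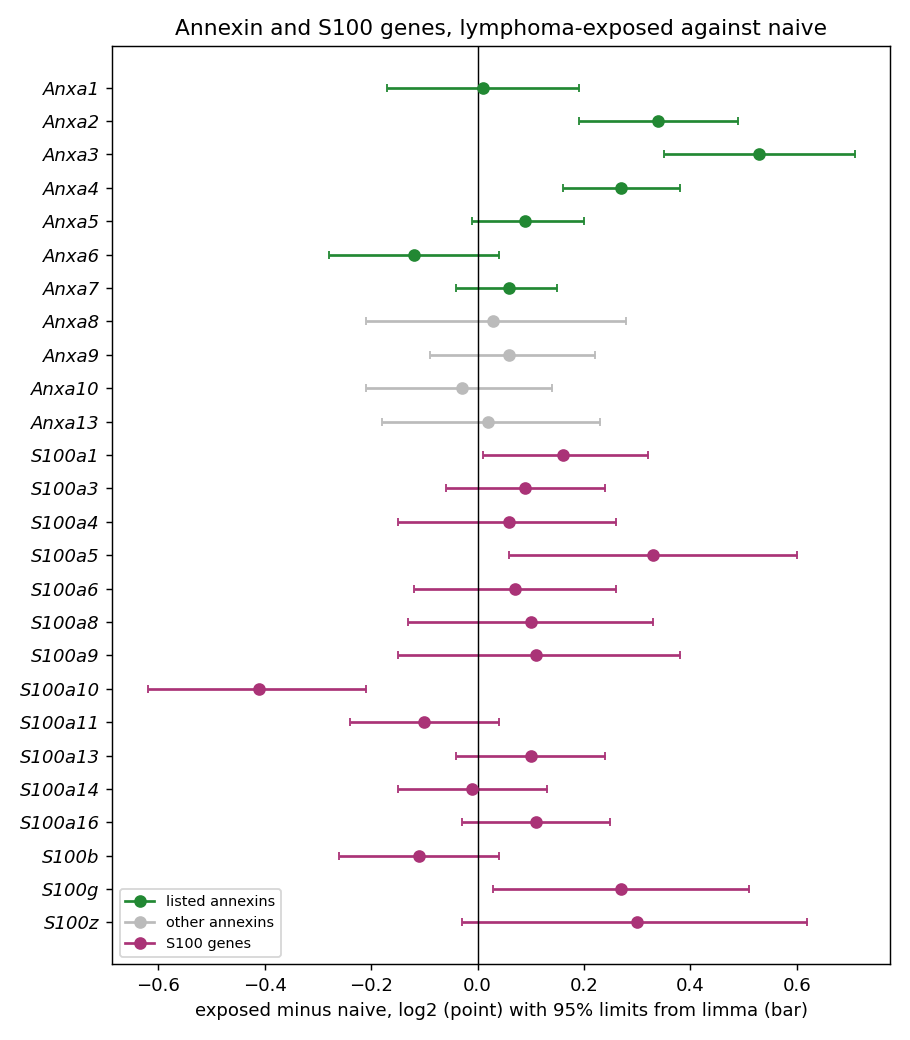
Exposed minus naive log2 differences (horizontal axis) with 95% limits from limma for the 7 listed annexins, 4 other annexins and 15 S100 genes. Among the annexins the limits stay above 0 for Anxa2, Anxa3 and Anxa4. The listed annexins were chosen on this comparison, so their limits describe and do not test. Among the S100 genes the limits also stay above 0 for S100a1, S100a5 and S100g, none of them called. S100a10 lies farthest below 0, at -0.41.

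Fpr2, a formyl peptide receptor on which Anxa1 acts, rose while Anxa1 itself differed by 0.01. Of 3 listed receptor genes only Fpr2 had a probeset of its own. Its naive arrays ran from 4.90 over a median of 5.57 to 5.79, about the dim mark, and the exposed arrays 1, 2, 3, 4 and 6 read 7.34, 7.62, 7.76, 6.55 and 6.68. The groups did not overlap, and the rise was 1.66 ± 0.22 (SE; limma adjusted p = 0.00409). The naive mean of 5.52 lay below the dim mark, so this is a fitted difference from a dim level and not an exact fold. The exposed arrays 1 to 3 were the highest, and the interaction with the number set was -1.31 (limma, unadjusted p = 0.000307, adjusted p = 0.992). Within arrays 4 to 6 the difference was 0.92 and was not called (adjusted p = 0.0857).

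Anxa1 was first described as an inhibitor of phospholipase A2, the enzyme class that frees the fatty acid from which prostaglandins and leukotrienes are made. Of 23 measured phospholipase and eicosanoid genes 12 were positive and 1 was called, and their median was 0.011. Pla2g7, a secreted phospholipase that degrades platelet-activating factor, averaged 8.44 ± 0.13 in naive (SD, n = 6) and 8.95 ± 0.26 in exposed cells (SD, n = 5), a rise of 0.51 ± 0.11 (SE; limma adjusted p = 0.0338). Arrays 1 to 3 gave 0.75 and arrays 4 to 6 gave 0.19. Leaving out single arrays kept the call in 2 of 11 fits, without exposed array 4 or 6, and with exposed arrays 1 and 2 removed the difference was 0.33 (adjusted p = 0.139). Pla2g4a, the cytosolic enzyme that Anxa1 is best known to restrain, differed by 0.19 (adjusted p = 0.255). Of 10 genes of the glucocorticoid response, the pathway that induces Anxa1, 0 were called by limma and 1 had an unadjusted p under 0.05, Per1 (-0.39, adjusted p = 0.208), where 12.2% of all genes had one.

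Genes around the surface roles of annexins gave no calls, and their counts at an unadjusted p under 0.05 stand against 12.2% of all genes. Of 7 measured plasminogen system genes, which Anxa2 serves, limma called 0 and 1 had an unadjusted p under 0.05. That gene, Serpinb2, an inhibitor of plasminogen activators, differed by -0.47 (adjusted p = 0.337), and the median of the list was -0.112. A further list holds 22 genes that move phosphatidylserine across the membrane, in either direction, or that recognise or take up cells by it. Of these, limma called 0 and 8 had an unadjusted p under 0.05. The uptake receptor Mertk had the largest difference, 0.80 (adjusted p = 0.380), with exposed arrays between 7.25 and 9.63. Of 21 membrane repair genes limma called 0 and 2 had an unadjusted p under 0.05, led by the ferlin gene Myof at 0.28 (adjusted p = 0.0926).

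Copines, like annexins, bind phospholipid in a calcium-dependent way but through C2 domains. Of 8 measured copine genes 6 were positive and 1 was called, with a median of 0.033. Cpne2 rose from 10.25 ± 0.07 (SD, n = 6) to 10.52 ± 0.13 (SD, n = 5), by 0.27 ± 0.06 (SE; limma adjusted p = 0.0422), with no overlap of the groups. Leaving out single arrays lost the call in 9 of 11 fits, the largest adjusted p being 0.115 without exposed array 2, and it held without exposed array 3 or 6. It was also lost in limma without trend (adjusted p = 0.0673), after centring arrays on their median (0.0793) and with exposed arrays 1 and 2 removed (0.20, adjusted p = 0.230). Across the partner, pathway and copine lists, 3 of 107 measured genes were called higher and 1 lower, where 0.879% and 0.546% of all genes were.

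The profile of Anxa3 over the 11 arrays was set against that of every other gene, each centred on its own mean. The nearest were Gsr, which encodes glutathione reductase, at a root mean square difference of 0.093, and Fscn1, which encodes the actin bundler fascin of mature dendritic cells, at 0.118. Next came the membrane channel gene Tmem63b (0.119), the bicarbonate carrier gene Slc4a8 (0.122) and the transporter gene Slc49a4 (0.123), and the median gene lay at 0.320. Gsr was 0.44 higher in exposed cells and Fscn1 0.41 higher, which the choice by likeness to Anxa3 nearly fixes. Among the annexins Anxa4 was nearest to Anxa3 (0.199), followed by Anxa2 (0.217), and Anxa6 was farthest (0.398). Of 22179 genes Anxa4 ranked 161 and Anxa2 325 by nearness. These distances take in the group differences that chose the annexins, so their order is no separate result.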

How the data were processed

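Deposited are log2 expression values for each probeset on each array, computed with RMA per the submitters' processing notes. The version, the array's annotation and the genome build are not given in the sources used here. Of 41801 probesets, 7329 were blank on every array, and 34472 were used. GEO's platform annotation named 1 gene for 23521 of these, several for 1814 and none for 9137. Each gene took its probeset with the highest mean over the 11 arrays, which left 22180 genes.

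Group differences came from limma 3.58.1 in R 4.3.3 (lmFit, eBayes with trend) with Benjamini-Hochberg adjustment. On simulated data of 22180 genes in this design, limma recovered 100% of 100 genes changed by 1 and 93% of 100 changed by 0.5 on the log2 scale, with 9 false among 202 calls. The simulated arrays had independent noise, an equal SD in both groups and no number sets, so the real arrays need not meet these rates. The number of arrays limits the precision. The annexins, the partner and marker lists and the tests were chosen with earlier results of these data known. Named genes are all annexins with a probeset; up to 3 called genes per list and direction, or else the one with the largest difference; direct annexin partners and receptors; the 5 profiles nearest to Anxa3; and the checks Itgax, Cd79a, Cd3e, Cd5l, Ly6c2 and Cebpb. Itgax differed by -0.14 (adjusted p = 0.359) and Cebpb by 0.37 (adjusted p = 0.366). Pla2g4a, S100a1, S100a5, S100a8, S100a9, S100g, Cx3cr1 and Lyz2 were named in addition, after their values were seen. So were all other named marker genes that are not among the checks, with the called subset and NK markers among them. Promoter windows are RefSeq's. Alternatives covered the variance model, scaling, dim genes, probeset choice, number blocks, marker covariates and single arrays. Removing exposed arrays 1 and 2 was added after the marker levels had been seen.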

Additional observations from a re-analysis of the deposited data

Results flagged for a closer look

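A sample far from the rest of its group was found in 3 of 34 groups examined, by a test of the gap to the nearest sample that marks about 1 group in 20 by chance. Anxa5 on naive array 1 read 11.02, the lowest of 6, with the next at 11.16. Anxa9 on exposed array 4 read 5.62, the highest of 5, with the other arrays at 5.55, a small gap at the level of dim genes. Fpr2 on naive array 3 read 4.90, the lowest of 6, with the next at 5.53.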

How the results depend on the processing

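The median annexin difference stayed positive under all alternatives run, from 0.055 to 0.152, and between 0.0648 and 0.1189 with single arrays left out. The annexin differences moved by less than 1 SD under the alternatives run, except Anxa4 (0.35 in arrays 1 to 3, 0.18 in arrays 4 to 6) and the dim Anxa9 (-0.08 and 0.22). Leaving out single arrays gave 1 to 3 annexins called higher, 1 to 4 partner genes called higher and 0 to 2 lower, 68 to 232 of all genes called higher (68 without exposed array 2) and 36 to 163 lower (36 without exposed array 2). It gave 132 to 725 genes (132 without exposed array 6) and 0 to 1 annexins called between number sets, and 0 to 7 interactions (7 without exposed array 3). As a replicate block the title number gave 1 annexin called higher, 5 partner genes higher and 2 lower, and the number in the characteristics gave 1 annexin, 0 partner genes lower, and 114 of all genes higher and 68 lower. The annexin called under either block was Anxa3, not Anxa2 or Anxa4. Whether the numbers pair the samples is not settled: residual correlations of same-numbered arrays were 0.088 to 0.231, 1 of 5 under 0.1, and 2 of 5 exposed arrays correlated best with their own number. Naive and exposed arrays correlated at 0.127 on average within number sets and at -0.127 across them. The number set as a block gave 5 partner genes higher and 2 lower, and 365 of all genes higher and 252 lower. Arrays 1 to 3 alone gave 0 annexins, 1 partner gene higher and 0 lower, and 7 genes higher and 4 lower; arrays 4 to 6 alone gave 0, 0 and 0, and 2 and 3. With the macrophage covariate 1 annexin, 1 partner gene higher and 0 lower and 72 of all genes lower were called, and with the monocyte covariate 0, 1 and 0, with 120 genes higher and 45 lower. With exposed arrays 1 and 2 removed, chosen after seeing the data, 1 annexin, 1 partner gene higher and 0 lower, and 68 genes higher and 31 lower were called. Without trend 0 partner genes were lower and 0 annexins differed between number sets. A common 75th percentile gave 2 partner genes lower, 0 annexins between number sets, and 168 genes higher and 223 lower, 43.0% higher against 61.7% (195 and 121) as reported. Removing dim genes gave 184 lower, median centring 1521 number set genes and quantile normalisation 460. The cause of these shifts was not tested. Signal at the level of dim genes limits Anxa8, Anxa9, Anxa10 and Anxa13.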
